A study of Mus musculus with 2 samples.

Results

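The genes described here encode heterogeneous nuclear ribonucleoproteins (hnRNPs) and core proteins of the spliceosome in the central nervous system of the mouse embryo. They are the protein-coding genes whose symbols begin with Hnrnp, with Snrp (other than Snrpn), with Sf3a or Sf3b and a digit, or with Prpf and a digit. This rule found 53 genes among the 21474 protein-coding genes, and the 43346 genes of any kind, in the gene tables. The rule uses gene names and no measured value. The spliceosome removes introns from pre-mRNA. It is built from small nuclear ribonucleoproteins (snRNPs), in most of which a ring of Sm proteins sits on the RNA. The SF3A and SF3B complexes hold the U2 snRNP at the branch point while the U4/U6.U5 tri-snRNP brings in the catalytic core. The hnRNPs coat nascent transcripts and help choose which sites are used. Many genes of both kinds make alternative transcripts that carry early stop codons and are degraded by nonsense-mediated decay, and several set their own level in this way.

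Both libraries came from C57BL/6J mice, from central nervous system tissue of embryos at day 18, with males and females of a litter pooled. The animals carried no treatment or engineered allele, so there is 1 group with 2 biological replicates and no comparison between conditions. The labels tie both biosamples to the same donor record without the number of embryos behind each, so the spread between replicates may be partly technical. The RNA was polyadenylated, over 200 nt long and free of most ribosomal RNA, and its stranded libraries were read from both ends. Replicate 1 held 97513548 fragments and replicate 2 held 142741622, of which 93979836 and 137012773 were assigned to genes.

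Neuronal and glial markers were present in both libraries. All 4 markers each of young neurons, mature neurons and radial glia were detected, and the 4 young neuron markers summed to 5558 TPM in replicate 1 and 5153 TPM in replicate 2. The unit TPM is a deposited level that is corrected for transcript length and library size. The libraries differed in markers of other tissue: the 5 skeletal muscle markers summed to 12.9 TPM in replicate 1 and 475 TPM in replicate 2 (2 of 5 detected in both), the 4 choroid plexus markers to 443 and 1417 TPM (3 of 4), and the 4 bone and cartilage markers to 8.95 and 46.4 TPM (1 of 4). The 3 keratinocyte markers summed to 54.7 and 0.51 TPM (0 of 3) and the 3 platelet markers to 210 and 24.1 TPM (2 of 3). In bulk tissue, fewer cells of a type and less RNA per cell cannot be told apart.

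All 53 genes were detected, with detection set at 1 TPM or above in each of the libraries, while 13506 of all protein-coding genes (62.9%) were. Their median level was 92.1 TPM in replicate 1 and 84.1 TPM in replicate 2 (88.1 ± 5.68, SD, n = 2). The median of all detected protein-coding genes was 20.1 and 19.7 TPM, and 52 of the 53 genes lay above it. Placed among all protein-coding genes, the median gene stood at percentile 91.8 and the lowest at percentile 65.6. A total of 29 genes were in the top 10% and 23 reached 100 TPM. Together the 53 genes took 0.991% of the fragments on genes in each library. The highest gene exceeded the lowest by 46.4-fold. The SD over the libraries was 2.77% of the mean for the median gene and at most 17.1%.

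**Figure D1:**
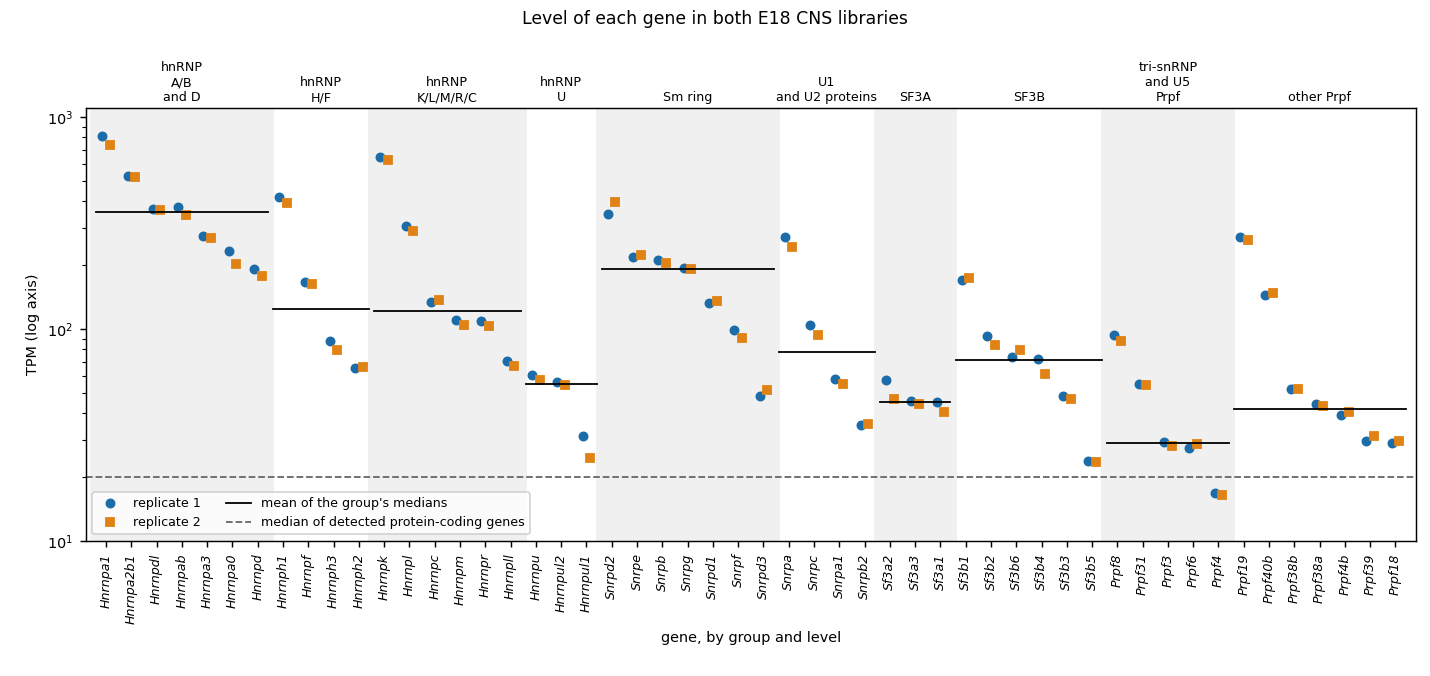
TPM on a log axis for 52 of the 53 genes, ordered by level within 10 groups, with replicate 1 as circles, replicate 2 as squares, each group's median as a line and the median of detected protein-coding genes as a dashed line. The hnRNP A/B and D genes sit at 177 TPM or more, and Prpf4 is the gene below the dashed line.

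The hnRNP A/B and D genes formed the highest group, with a median of 355 ± 14.9 TPM (SD, n = 2). These proteins carry a pair of RNA recognition motifs and a glycine-rich tail. Hnrnpa1, which antagonises SR proteins in the choice of splice sites, had 815 TPM in replicate 1 and 734 in replicate 2, the highest of the 53. Its relative Hnrnpa2b1 had 526 and 519 TPM. Hnrnpdl had 366 and 364 TPM, and Hnrnpab had 376 and 345 TPM. The libraries' values of Hnrnpdl and Hnrnpab overlap, so their order is not fixed, while the other neighbours in the group did not overlap. Hnrnpa3 stood at 272 ± 5.56 TPM and Hnrnpa0, which has a single coding exon, at 218 ± 22.9. The lowest of the group was Hnrnpd, also known as AUF1, which binds AU-rich elements of mRNAs, with 192 and 177 TPM.

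Within this family a related set of exons was skipped in some junction reads. These reads come from a file of the whole series on mm9 with 2 replicates, whose numbers are not tied to the libraries above. Inclusion is the mean of the reads over an exon's 2 junctions, divided by that mean plus the reads that skip it. In Hnrnpab, Hnrnpd, Hnrnpdl and Hnrnpa2b1, 1 exon of the glycine-rich tail was skipped in part of the reads and has a length that is a multiple of 3, so skipping it keeps the reading frame. Exons were matched to GENCODE M21 transcripts on GRCm38 by their own length and those of both flanking introns. The 4 exon sequences follow, because they show what inclusion adds to the protein: lower case 5′ to 3′ from the transcript strand, with in-frame tyrosine codons in capitals.
Hnrnpab, chr11:51601750-51601890, minus strand: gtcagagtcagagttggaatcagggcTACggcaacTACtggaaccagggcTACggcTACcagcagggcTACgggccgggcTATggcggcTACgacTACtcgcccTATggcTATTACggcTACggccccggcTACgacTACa
Hnrnpd, chr5:99963731-99963877, minus strand: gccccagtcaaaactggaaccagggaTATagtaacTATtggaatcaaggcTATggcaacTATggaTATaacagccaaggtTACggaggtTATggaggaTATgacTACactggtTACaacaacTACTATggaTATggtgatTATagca
Hnrnpdl, chr5:100036481-100036651, minus strand: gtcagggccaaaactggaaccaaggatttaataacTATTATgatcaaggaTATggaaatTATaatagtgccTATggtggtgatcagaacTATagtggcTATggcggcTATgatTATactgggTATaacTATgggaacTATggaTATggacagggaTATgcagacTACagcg
Hnrnpa2b1, chr6:51464428-51464547, minus strand: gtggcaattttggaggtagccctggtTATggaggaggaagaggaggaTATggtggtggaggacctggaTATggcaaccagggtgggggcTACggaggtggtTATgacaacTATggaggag

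All 4 exons are rich in glycine and tyrosine codons. In Hnrnpab 27 of 46 whole codons (58.7%) encode 1 of these residues, against 21.4% over the whole protein of the same transcript. The corresponding counts are 26 of 48 codons (54.2%) in Hnrnpd, 29 of 56 (51.8%) in Hnrnpdl and 29 of 39 (74.4%) in Hnrnpa2b1. Tyrosine makes up 14, 14 and 15 of the codons in Hnrnpab, Hnrnpd and Hnrnpdl, and 6 in Hnrnpa2b1. The residues encoded by the Hnrnpab and Hnrnpd exons were identical at 34 of 42 aligned positions (81.0%), those of Hnrnpd and Hnrnpdl at 36 of 46 (78.3%) and those of Hnrnpab and Hnrnpdl at 32 of 46 (69.6%). The Hnrnpa2b1 exon was less like these, with 54.3% to 56.2% identity over 32 to 35 aligned positions.

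The exons were used to different extents in the junction reads. The Hnrnpab exon had an inclusion of 18.7% (95% exact interval 17.8% to 19.7%) in mm9 replicate 1 and 18.7% (17.9% to 19.5%) in replicate 2. The Hnrnpd exon was included at 62.2% (60.1% to 64.2%) and 61.3% (59.6% to 63.1%). The Hnrnpdl exon reached 95.3% (94.3% to 96.1%) and 95.5% (94.7% to 96.1%). The intervals of these 3 paralogous exons did not overlap in either replicate. Hnrnpa2b1 included its exon at 95.6% and 95.2%. These 4 exons were put together after their values were seen. Those of Hnrnpdl and Hnrnpa2b1 lie above the limit of 95% used for the other genes, and a wider limit let them in. A 159 nt exon of Hnrnpa1, also a multiple of 3, was included at 96.2% (95.4% to 97.0%) and 89.5% (88.4% to 90.5%), where the replicates' intervals did not overlap. Reads per exon, the mean of both inclusion junctions plus the skipping reads over both replicates, reached 939% of the gene's own median at the Hnrnpa1 exon and 105% at the Hnrnpa2b1 exon. Unequal placement of inclusion and skipping reads could not be measured from these files, and its part in the Hnrnpa1 value was not tested. Intervals cover counting error only.

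The transcript tables of the mm10 libraries gave other shares for some of these exons. The TPM on transcripts that hold an exon was set against the TPM on transcripts that hold or skip it. For the Hnrnpab exon this was 49.4% in replicate 1 and 49.5% in replicate 2, well above the junction value of 18.7%. For the Hnrnpd exon it was 59.3% and 62.8%, and for the Hnrnpa2b1 exon 96.6% in both, close to the junction values. No transcript listed for Hnrnpdl skips its exon, so this share is 100% for Hnrnpdl whatever the reads. For the Hnrnpa1 exon it was 30.4% and 30.3%, far below the junction values. Hnrnpab lay below Hnrnpd in both measures, but the size of the gap between them rests on the measure, and the cause was not tested. The transcript share cannot place Hnrnpdl in this order.

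**Figure D2:**
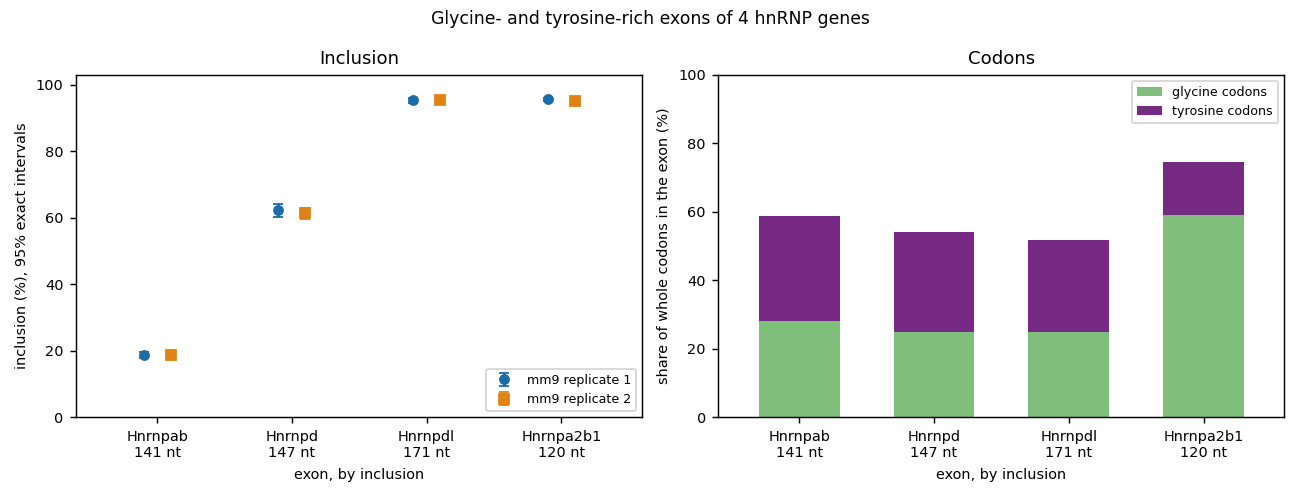
Left, inclusion in percent of the 4 glycine- and tyrosine-rich exons in both mm9 replicates with 95% exact intervals; right, the share of glycine and tyrosine codons among the whole codons of each exon. Inclusion spans 18.7% in Hnrnpab to over 95% in Hnrnpdl and Hnrnpa2b1, while glycine and tyrosine make up 51.8% to 74.4% of codons in all 4.

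Hnrnpd has a second cassette exon near its start, of 57 nt, that carries none of those codons. It was included at 78.2% (76.5% to 79.9%) and 80.3% (78.9% to 81.7%). By the transcript tables it lies in 55.5% and 59.3% of the TPM that holds or skips it, below the junction values. A 105 nt exon of Hnrnpdl, which lies after the stop codon of coding transcripts, was included at 34.4% and 31.7%. GENCODE M21 places it in decay and retained intron transcripts. These held 49.5% and 49.4% of the TPM that holds or skips the exon, above the junction values.

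The hnRNP H/F genes, whose proteins bind runs of G, had a median of 124 ± 3.91 TPM. Hnrnph1 had 421 and 391 TPM, Hnrnpf 166 and 163 TPM, and Hnrnph3 88.0 and 79.4 TPM. The X-linked Hnrnph2 was lowest at 65.04 and 65.8 TPM, and no neighbours in this order overlapped. In Hnrnph1 a 50 nt exon was included at 90.5% and 89.9%. Its last bases, 48 to 50, are the annotated stop codon of a coding transcript. A donor 151 nt from the main one of Hnrnph1 took 21.9% and 23.1% of the reads. In Hnrnph3 a 139 nt exon, not a multiple of 3, was included at 74.1% and 79.5%. By the transcript tables that exon lies in 49.9% and 54.6% of the TPM that holds or skips it.

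The group of Hnrnpk, Hnrnpl, Hnrnpll, Hnrnpm, Hnrnpr and Hnrnpc had a median of 122 ± 0.944 TPM. Hnrnpk, which binds C-rich RNA through KH domains, had 646 and 626 TPM, second to Hnrnpa1 among the 53. Hnrnpl, which binds CA repeats, had 305 and 289 TPM, and its paralog Hnrnpll was the lowest of the group at 70.4 and 66.5 TPM. Hnrnpc, which binds U-tracts, had 134 and 137 TPM. Hnrnpm at 107 ± 3.78 TPM and Hnrnpr at 106 ± 4.19 TPM overlapped. In Hnrnpk a 72 nt exon was included at 9.04% (5.15% to 14.5%) and 17.6% (13.9% to 21.8%), although it is found in 14 M21 transcripts of several classes. Its inclusion junctions held 28 and 2 reads in mm9 replicate 1, and 71 and 63 in replicate 2. The value of mm9 replicate 1 is therefore not a reliable estimate. By the transcript tables the exon lies in 58.2% and 56.0% of the TPM that holds or skips it. Junction reads did not follow the level in every gene, with medians per exon of 734 in Hnrnpk, 608 in Hnrnpa1 and 108.5 in Hnrnpa3, against 17082 in Hnrnpa2b1 and 6220 in Hnrnph1. In Hnrnpr an exon before the start codon has acceptors 3 nt apart, and the inner one took 52.2% and 45.1% of the reads on the pair. Over both acceptors the exon was included at 73.95% (70.7% to 77.0%) and 73.6% (70.9% to 76.1%). An exon of 497 nt before the start codon of Hnrnpl, at 82.2% and 78.4%, had junctions that differed by 41.8-fold, so its inclusion is not a reliable estimate.

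The 3 hnRNP U genes were lower, with a median of 55.2 ± 1.42 TPM. Hnrnpu, the scaffold attachment factor that binds chromatin-associated RNA, had 60.6 and 57.6 TPM. Hnrnpul2 had 56.2 and 54.2 TPM, and a 74 nt exon of it was included at 93.4% and 91.7%. Hnrnpul1 had 31.2 and 24.5 TPM, and an SD of 17.1% of the mean, the largest relative SD of the 53 genes.

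The Sm ring genes had a median of 192 ± 2.40 TPM and spanned 7.49-fold. Their proteins assemble into a ring with a copy of each kind. Snrpd2 was highest at 349 and 395 TPM. Snrpe had 218 and 224 TPM, Snrpb, which encodes SmB, 211 and 205 TPM, and Snrpg 194 and 191 TPM. Snrpd1 stood at 134 ± 2.51 TPM, Snrpf at 94.8 ± 5.73, and Snrpd3 was lowest at 48.0 and 51.4 TPM. No neighbours overlapped. Levels of such short genes rest on small effective lengths, 149 and 152 nt for Snrpg. A processed pseudogene named Snrpert was listed at 42.5 and 45.2 TPM from 199 and 333 fragments. The other 3 noncoding genes with matching names were at 0.04 TPM or less.

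Of the snRNP-specific proteins with Snrp names, Snrpa (U1-A) had 272 and 242 TPM, and Snrpc (U1-C) 104 and 93.4 TPM. The U2 proteins were lower, with Snrpa1 (U2-A′) at 58.0 and 55.2 TPM and Snrpb2 (U2-B″) at 35.0 and 35.4 TPM. Again no neighbours overlapped in TPM. Snrpa used a donor 3 nt from its main one in 37.4% and 40.2% of reads. Whether that donor lies in the coding sequence was not tested. An 80 nt exon of Snrpa1 was included at 94.7% and 93.8%, against 77.7% and 76.7% of the TPM that holds or skips it in the transcript tables.

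The SF3A subunits stood close together in TPM. Sf3a2 had 57.1 and 46.8 TPM, Sf3a3 45.7 and 44.4 TPM, and Sf3a1 45.1 and 40.7 TPM. Their span was 1.21-fold, and Sf3a3 and Sf3a1 overlapped. In mm9 RPKM they lay further apart in the opposite order. Sf3a1 had 9.02 and 8.34, Sf3a3 5.16 and 3.90, and Sf3a2 4.07 and 3.29. The SF3B subunits spanned 7.30-fold around a median of 71.6 ± 1.71 TPM. Sf3b1, the largest subunit, which binds the branch point region, had 171 and 174 TPM. Sf3b2 had 92.1 and 84.1 TPM and Sf3b6, whose protein contacts the branch point adenosine, 73.8 and 79.3 TPM. Sf3b4 stood at 66.6 ± 7.36 TPM and Sf3b3 at 47.2 ± 1.12. Sf3b5 was lowest at 23.7 and 23.6 TPM, computed over an effective length of 3640 and 3643 nt.

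The Prpf genes of the tri-snRNP and U5 formed the lowest group, with a median of 28.8 ± 0.438 TPM. Prpf8, the scaffold of the catalytic core, had 93.2 and 87.2 TPM. Prpf31, which holds the U4 snRNA and is mutated in human retinitis pigmentosa, had 54.9 and 54.5 TPM. Prpf3 with 29.1 and 28.0 TPM and Prpf6 at 28.0 ± 0.686 TPM overlapped. Prpf4 was the lowest of all 53 genes at 16.8 and 16.5 TPM.

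The other Prpf genes had a median of 41.8 ± 0.0955 TPM. Prpf19, the ubiquitin ligase of the Prp19 complex, had 270 and 262 TPM, and Prpf40b, a U1-associated protein, 145 and 148 TPM. Prpf38b had 52.0 and 51.9 TPM. Prpf38a stood at 43.9 ± 0.622 TPM, the kinase gene Prpf4b at 39.8 ± 0.813, Prpf39 at 30.4 ± 1.17 and Prpf18, a factor of the second step, at 29.2 ± 0.544.

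Other genes of the pathway, from lists that were not picked by level, were detected without exception, 80 of 80. The 11 SR genes, whose proteins promote exon inclusion, had a median of 242 ± 7.33 TPM, between the hnRNP A/B and D group and the Sm ring. The 10 genes of U2 recruitment had 106 ± 8.02 TPM and 11 further hnRNP-type genes 95.6 ± 5.72 TPM. The 10 Lsm genes had 66.0 ± 1.97 TPM and the 7 other snRNP genes 54.0 ± 3.23 TPM. The 21 tri-snRNP and Prp19 complex genes, at 34.3 ± 1.09 TPM, stood near the tri-snRNP Prpf genes, and the 10 snRNP assembly genes had 30.4 ± 1.15 TPM.

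Pairs of related or partner genes, 18 in all, were compared within each library. On the log2 scale of TPM the ratio of Hnrnph1 over Hnrnph2 was 2.63 ± 0.09, of Snrpa over Snrpb2 2.87 ± 0.13, and of Hnrnpl over Hnrnpll 2.12 ± 0.003 (SD, n = 2). Hnrnpu and Hnrnpul2 were closest in TPM, at 0.10 ± 0.01, but stood at 1.77 in the RPKM values deposited on mm9. On that scale 15 of the 18 ratios differed from the TPM ratio by more than its SD, and 3 changed direction, all of Hnrnpa1 and its relatives. The log2 ratio of Hnrnpa1 was 0.57 ± 0.09 over Hnrnpa2b1, 1.51 ± 0.08 over Hnrnpa3 and 1.83 ± 0.04 over Hnrnpa0 in TPM, but -1.84, -0.37 and -1.38 in mm9 RPKM. All 18 pairs kept 1 direction in both libraries.

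Across the 53 genes, TPM in replicate 1 and replicate 2 gave almost the same order, with a Spearman correlation of 0.997. The mean TPM and the mean mm9 RPKM correlated at 0.772. These correlations describe 53 genes that share the same libraries. All 53 were found in the mm9 table. Hnrnpa1 stood there at 11.5 and 12.5 RPKM, below Hnrnpdl at 49.1 and 47.2, Hnrnpa2b1 at 44.3 and 41.7 and Hnrnpk at 22.2 and 22.1. Sf3b5, near the bottom in TPM, stood at 16.5 and 17.6 RPKM. How each table treated reads with several matches, and which gene models set the lengths, was not tested.

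Exon use in these genes was close to that of other genes. Of 572 annotated exons with reads on both junctions in 51 of the genes, 569 had at least 20 junction reads in both mm9 replicates, and 534 of these (93.8%) were included above 95% in both. The share was 93.7% over 128942 exons of all detected protein-coding genes. Hnrnpa0 and Sf3b5 gave no such exon. In 8 exons inclusion was under 5% in both, 20 exons of 15 genes lay between 5% and 95% in both, and 7 crossed a limit between the replicates. The 20 make up 3.51% of the exons, against 3.94% over all detected protein-coding genes, and 15 of 51 genes are 29.4%, against 28.6%. The acceptor versions of the Hnrnpr exon count as 2 of the 20, with the same downstream and skipping reads. With reads summed over both replicates, the inclusion junctions of 19 of the 20 differed by at most 4-fold. Within mm9 replicate 1 alone, those of 2 Hnrnpk exons differed by more, with 28 and 2 reads (72 nt) and 3 and 25 reads (44 nt). The lengths of 9 of these 19 are multiples of 3 and those of 10 are not. The replicates' intervals overlapped for all 19, and their estimates differed by at most 14.1 percentage points, in a 44 nt exon of Hnrnpk read few times. Just outside the limits lay exons of Hnrnph1 (139 nt) at 95.8% and 95.6% and of Snrpb (124 nt) at 4.58% and 4.90%.

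**Figure D3:**
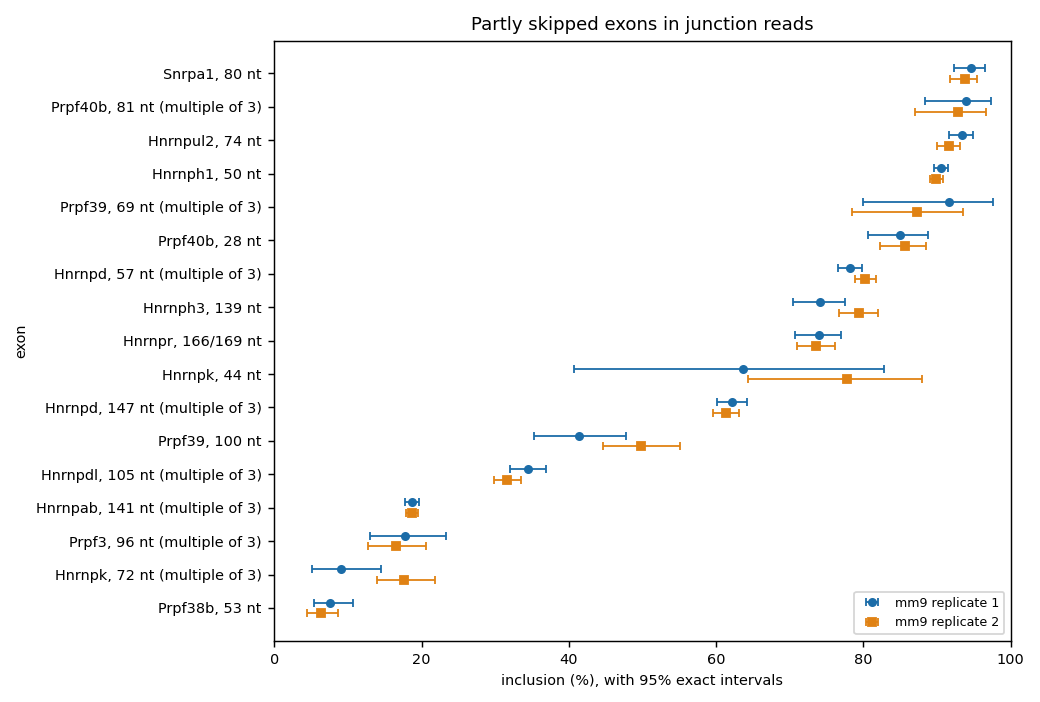
Inclusion in percent of 16 of the 19 exons between 5% and 95% whose junctions, summed over both replicates, differed by at most 4-fold. The Hnrnpr exon is shown over both acceptors, and all values are given in both mm9 replicates with 95% exact intervals. The replicates' intervals overlap for each exon, and the values run from 6.31% in Prpf38b to 94.7% in Snrpa1. The widest intervals are those of Hnrnpk (44 nt), whose replicates lie apart at 63.6% and 77.8%.

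Several exons of these genes, within or outside those limits, bring a stop codon into the reading frame. Such exons are often called poison exons, because a transcript that includes them is a candidate for nonsense-mediated decay. The 4 sequences below run from the first base of the exon to the end of its first in-frame stop codon, which is in capitals. They are shown because the place of the stop sets what inclusion does to the open reading frame.
Snrpb, chr2:130176695-130176752, minus strand: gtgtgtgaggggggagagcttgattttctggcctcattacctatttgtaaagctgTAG
Prpf3, chr3:95849761-95849790, minus strand: gagttccaggaagcgctcgcccctggcTGA
Prpf39, chr12:65055434-65055520, plus strand: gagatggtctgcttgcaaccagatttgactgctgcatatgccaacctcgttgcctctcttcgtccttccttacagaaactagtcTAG
Hnrnpll, chr17:80044976-80045022, minus strand: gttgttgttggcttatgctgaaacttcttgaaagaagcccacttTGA

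In Snrpb the stop falls at bases 56 to 58 of a 124 nt exon, which was included at 4.58% (3.62% to 5.77%) and 4.90% (4.08% to 5.89%). In human cells an alternative exon of SNRPB with an early stop is known to be part of the feedback by which SmB limits its own synthesis. In Prpf3 the stop falls at bases 28 to 30 of a 96 nt exon, included at 17.7% (13.0% to 23.3%) and 16.5% (12.7% to 20.6%). The Prpf39 exon of 100 nt has its stop at bases 85 to 87 and was included at 41.4% (35.3% to 47.7%) and 49.8% (44.6% to 55.1%). The Hnrnpll exon of 83 nt, not annotated in Ensembl release 65, has its stop at bases 45 to 47 and was included at 12.0% (10.01% to 14.2%) and 10.3% (8.70% to 12.0%). In M21 each of the 4 lies in a transcript of the decay class, and the Prpf39 exon also in a retained intron transcript. In the transcript tables the share of TPM on transcripts that hold the exon, of those that hold or skip it, was 5.12% and 4.72% for Snrpb, 18.2% and 19.9% for Prpf3 and 19.7% and 17.1% for Hnrnpll. For Prpf39 it was 14.7% and 14.6%, below the junction values. A 53 nt exon of Prpf38b meets its stop at bases 4 to 6 and was included at 7.62% and 6.31%, against 19.8% and 18.6% in the transcript tables. Another exon of Prpf39, of 69 nt and with its stop at bases 7 to 9, was included at 91.7% and 87.3%, but its reads were 21.5% of the gene's median per exon, and the transcript that holds it has 14.7% and 14.6% of the TPM.

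In Prpf40b a 28 nt exon, not a multiple of 3 and without an in-frame stop, was included at 85.1% (80.7% to 88.8%) and 85.7% (82.3% to 88.6%). M21 places it in coding and retained intron transcripts, and the 1 listed transcript that skips it held 2.42% and 2.08% of the TPM. An 81 nt exon of that gene before the start codon was included at 94.0% and 92.9%, with reads at 20.1% of the gene's median per exon. Prpf40b also used an acceptor 3 nt from the main one in 40.7% and 39.9% of reads.

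The transcript tables show how much of each gene was estimated on transcripts that M21 classes as coding. They list 274 transcripts of the 53 genes, of which 142 are coding, 73 retained intron, 36 processed transcripts without an open reading frame and 22 decay transcripts. The median gene had 96.8% of its TPM on coding transcripts, against 98.0% over all detected protein-coding genes. Hnrnph1 was the gene under 50%, with 43.5% and 47.4% coding and 56.5% and 52.6% on processed transcripts, so 1 of 53 genes (1.89%) was, against 8.50% of detected protein-coding genes. By expected counts Hnrnph1 was 54.8% and 54.5% coding, and the gene under 50% was Prpf40b, at 24.9% and 31.8%, against 4.75% of detected protein-coding genes. In 18 genes (34.0%) all TPM, to 1 decimal of a percent, was on coding transcripts, against 43.2% of detected protein-coding genes.

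Decay and retained intron transcripts together held 20% or more of the TPM in 14 of the 53 genes (26.4%), against 16.9% of detected protein-coding genes. By expected counts in place of TPM the count was 6 (11.3%), against 10.9%. TPM gives short transcripts more weight than counts do. The highest shares, of Hnrnph3, Prpf40b and Prpf31, overlapped between the libraries. Hnrnph3 had 51.9% and 46.0%, with 22.7% ± 2.64 on decay transcripts and 26.2% ± 1.53 on retained intron transcripts. Prpf40b had 51.5% and 46.1%, Prpf31 44.9% and 48.1%, and Prpf3 41.7% and 40.7%. By expected counts Prpf40b had 75.1% and 68.2%, Hnrnph3 38.8% and 33.1%, and Prpf31 21.7% and 23.4%. In Prpf31 a single retained intron transcript of 827 nt held 42.7% and 45.6% of the gene. Snrpb2 had 36.1% and 34.3%, all on retained intron transcripts. By expected counts Snrpb2 had 13.3% and 12.1%, and Prpf3 19.8% and 17.8%.

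Of the others, Snrpa1 had 32.3% and 33.8% of TPM, Hnrnpdl 33.2% and 32.9%, Hnrnpll 33.2% and 31.4%, Sf3b1 31.9% and 30.5%, and Snrpd3 27.3% and 34.3%. Decay transcripts made up 21.3% ± 0.403 of Hnrnpdl. By expected counts Snrpa1 had 34.4% and 36.3%, Hnrnpll 32.5% and 30.5%, and Hnrnpdl 24.2% and 23.7%. Sf3b1 fell to 14.5% and 14.1%, and Snrpd3 to 5.79% and 7.94%.

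**Figure D4:**
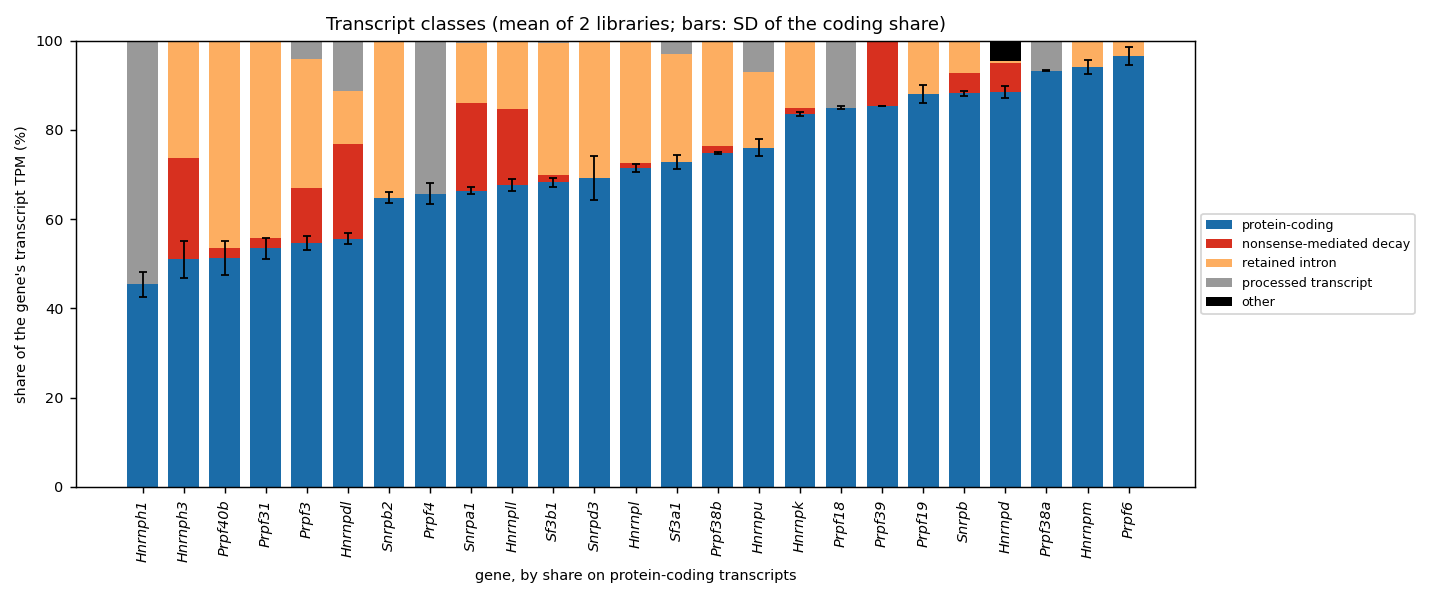
Share of each gene's transcript TPM, in percent, on coding, decay, retained intron, processed and other transcripts, as the mean of 2 libraries with the SD of the coding share, for 25 of the 26 genes with the lowest coding share. Hnrnph1 stands apart with 54.6% on processed transcripts, and retained intron transcripts lead the noncoding part in Prpf40b, Prpf31 and Snrpb2.

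Between the libraries the 53 genes differed little. The log2 ratio of replicate 1 over replicate 2, from CPM (counts relative to library size) scaled by TMM factors, had a median of 0.02 over the 53 genes and -0.002 over all 18677 genes tested. Over the 7620 genes at or above the level of the lowest of the 53 it was also 0.02. No gene of the 53 passed 2-fold in either direction, while 668 of all genes tested (3.58%) did and 0.656% of those 7620. None passed 1.5-fold, against 9.04% of all genes tested and 1.63% of the 7620. Hnrnpul1 alone passed 1.2-fold, against 25.0% and 8.60%. With 1 library on each side these are ratios of libraries, and no test was made.

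The highest ratios were those of Hnrnpul1 (log2 of 0.36), Sf3a2 (0.26) and Hnrnpd (0.23). The lowest were those of Snrpd2 (-0.20), Sf3b6 (-0.11) and Prpf39 (-0.08). The log2 ratios of TPM were 0.35 for Hnrnpul1, 0.29 for Sf3a2 and 0.11 for Hnrnpd, and -0.18, -0.11 and -0.08 for Snrpd2, Sf3b6 and Prpf39. By TPM 2 of these 3 stayed among the 3 highest and 2 among the 3 lowest, and Sf3b4 (0.23) stood above Hnrnpd. In all, 34 genes (64.2%) were higher in replicate 1 and 19 lower, against 49.5% higher over all genes tested and 58.1% over the 7620. The part that the markers of other tissue play in these small ratios was not tested.

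**Figure D5:**
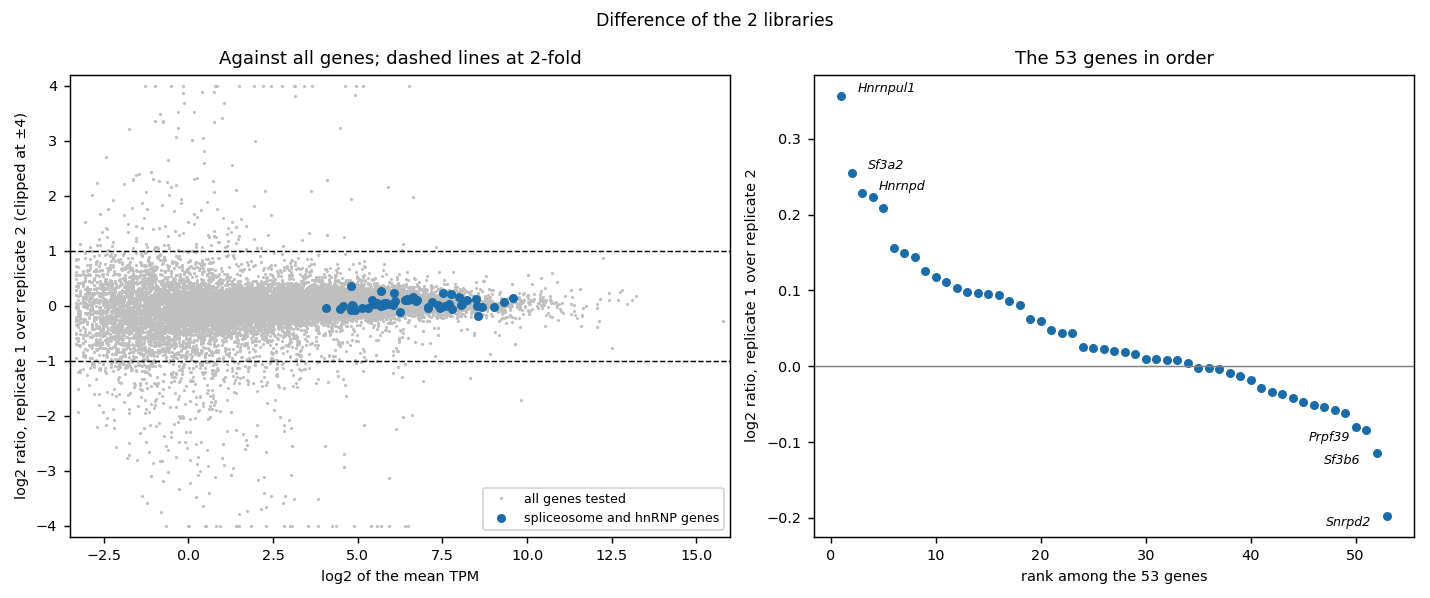
Left, log2 ratio of replicate 1 over replicate 2 against the log2 of the mean TPM for all genes tested at a mean TPM of 0.1 or more (grey) and the 53 genes (blue), with dashed lines at 2-fold; right, the 53 ratios in order with the 3 highest and 3 lowest named. All 53 lie between -0.20 and 0.36, inside the dashed lines.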

How the data were processed

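Poly-A RNA-seq of 2 libraries was described. Per the file headers the authors deposited 3 units on mm10 for genes and for transcripts, which are expected counts, FPKM and TPM, with GENCODE M4 named in the deposited read-me texts. No source used here names the aligner or the program that made them. Per the file attributes they also deposited RPKM values per Ensembl 65 gene and junction read counts on mm9 for 2 replicates that are not tied to a library. Entries that name no gene took 3.62% and 4.01% of the expected counts and were left out.

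Symbols, biotypes and positions came from GENCODE M21 (GRCm38), and 42462 of the 43346 genes had a symbol. Expected counts were rounded for the ratios, made with edgeR 4.0.16 (TMM, filterByExpr, prior count of 1). DESeq2 1.42.0 size factors, other thresholds and units, and each replicate left out were alternatives. Exons needed 20 junction reads in each replicate, and intervals are Clopper-Pearson at 95%, which cover counting error only. Encoded residues were aligned with Biopython 1.88 using BLOSUM62. The smallest gene held 1725 fragments in a library. Ratios and inclusion were tested on simulated data first. The simulated exons had equal reads on both junctions, so inclusion and its intervals under unequal junctions were not tested. Scripts ran in R 4.3.3 and Python 3.11.15 with SciPy 1.17.1 and pandas 2.3.3.

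With 1 group no test between conditions was possible, so levels and ratios are described. The genes, lists and pairs were chosen with earlier results of these data known. Named are, in each group, the 3 highest genes and the lowest, the 3 highest and 3 lowest ratios, the genes under 50% coding, the 10 with most decay or retained intron TPM, and for each gene the best-read exon between 5% and 95%. The glycine- and tyrosine-rich exons, the stop codon exons of Snrpb and Hnrnpll and the alternative sites were named after their values were seen. The values of 1 of the 53 genes, which remains in the counts and medians, and 1 exon sequence are not reported here.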

Additional observations from a re-analysis of the deposited data

How the results depend on the processing

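All 53 genes stayed detected at a TPM of 5, at an FPKM of 1 and at an mm9 RPKM of 1. Their median level was 114 TPM when rescaled over nuclear protein-coding genes and 54.7 in FPKM, and 84.1 to 92.1 TPM with 1 replicate left out. No gene passed 2-fold under DESeq2 size factors, TPM ratios, a prior count of 5 or no filter, nor 1.5-fold, and the median log2 ratio ranged up to 0.05 once a trend on GC content and length was removed. The exons between 5% and 95% numbered 19 at 50 reads and 22 to 26 in 1 mm9 replicate alone. The genes under 50% coding numbered 1 without replicate 1 and 3 without replicate 2. By expected counts 1 gene was under 50% coding, a different one. The mm9 RPKM values moved 15 of the 18 pairs past their spread and expected counts all 18, while FPKM and leaving out 1 of 2 replicates cannot do so by construction. The mm9 values turned 3 around, Hnrnpa1 over Hnrnpa2b1 (-1.84), over Hnrnpa3 (-0.37) and over Hnrnpa0 (-1.38), and expected counts without length correction turned Hnrnpa1 over Hnrnpa2b1 to -0.022. The cause was not tested. No paired analysis was possible because the labels give 1 group. With 2 libraries the SD itself is poorly known, and transcript shares and mm9 values hold no error of estimation.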

Other observations

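Junction reads also mark exons that Ensembl release 65 does not annotate, listed here after their values were seen. With balanced junctions, 5 such exons of 5 genes lay between 5% and 95% in both mm9 replicates. Besides the Hnrnpll exon these were a 226 nt exon of Hnrnpa2b1 at 35.0% and 44.0%, a 26 nt exon of Hnrnpc at 43.5% and 50.2%, a 106 nt exon of Prpf4b at 9.42% and 8.06%, and a 29 nt exon of Sf3b3 at 15.7% and 11.6%. The Hnrnpa2b1 exon had 301 and 465 junction reads, against 14114 and 21042 at the 120 nt exon of that gene. The junctions of the Hnrnpc exon differed by 3.83-fold with both replicates summed, and a transcript that holds it had 94.6% and 95.9% of the TPM.

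Several genes used alternative donors or acceptors that lie a multiple of 3 nt from the main site. Hnrnpc used acceptors 21 nt and 24 nt from the main one in 41.4% and 42.7%, and in 25.1% and 24.1% of the reads on each pair of sites. Hnrnpk used an acceptor 60 nt away in 20.97% and 18.5%, and Prpf19 one 57 nt away in 15.1% and 18.1%.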
